A study of Mus musculus with 54 samples.

Results

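The transcriptomes compared here are those of R1 cells, an established line of mouse embryonic stem cells, after 20 and after 10 days of differentiation. On both days the cells had been gathered into embryoid bodies, free-floating clumps, in hanging drops over 48 h. They were then cultured without attachment in medium that, per the labels, held 0.5 mM retinoic acid and was renewed daily. The groups are the 4 RNA libraries titled day 20 and the 5 titled day 10, out of 22 RNA libraries and 54 libraries in the series, with all 21960 genes of the deposited table. Both groups share the line, the aggregation and the agent, and no genotype change is named. No day-20 or day-10 culture without retinoic acid is among the samples, so time in culture and length of exposure cannot be told apart. Separate cultures are not named for the libraries of either day, so p-values measure only the spread between these libraries, which may be technical.

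In the embryonic nervous system progenitor cells first make neurons and later make glia, the astrocytes that feed and buffer neurons and the oligodendrocytes that wrap axons in myelin. Retinoic acid, a derivative of vitamin A, acts through nuclear receptors on DNA and switches on Hox genes, which set the position of cells along the body axis. Embryoid bodies also form endoderm, whose simple epithelium lines the gut and carries the keratins Krt8, Krt18 and Krt19. Stratified squamous epithelium, as in skin and oesophagus, has basal cells with Krt5 and Krt14 below cells that build a tough envelope from involucrin and small proline-rich proteins.

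Levels are in FPKM, fragments scaled to transcript length and library size, which can be compared between genes, and are given as mean ± SD over 5 libraries at day 10 and 4 at day 20. Changes are day 20 minus day 10 on a log2 scale after adding 1 FPKM, ± SE from limma, and they understate the change of genes below a few FPKM. The SE draws on the spread within every day of the series. It can be wider or narrower than the libraries of days 10 and 20 alone would give. A gene rose or fell where its Benjamini-Hochberg adjusted p over all genes tested was under 0.05. Library sums were 472122 to 494725 FPKM at day 10 and 545161 to 574242 at day 20, and 17801 to 17948 and 16927 to 17130 genes were above 0. The read depth is not given in the sources used here. Across genes, which are not independent replicates, libraries of day 10 correlated at 0.996 to 0.998, those of day 20 at 0.991 to 0.992 and libraries of different days at 0.870 to 0.879.

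Some libraries stood apart from the others of their day; the labels name no batch. Day-10 replicates 1 and 2 were lower than replicates 3 to 5 in several genes of stratified epithelium, for example Krt15, a basal keratin, at 5.2, 5.39, 11.6, 17.4 and 17.3 FPKM in replicates 1 to 5. Day-20 replicate 4 had a summed level of 2852 FPKM over the myelin genes listed, against 3984 to 4263 in the other 3 libraries. Over basal keratinocyte genes its sum was 1441, against 1988 to 2147 FPKM. Over interferon response genes it was the highest, at 1895 against 1458 to 1489 FPKM. Results for these groups are also given without that library.

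Between days 10 and 20 the larger changes were mostly increases. Of 14982 genes tested 11270 (75.2%) were called, 5567 higher (37.2%) and 5703 lower (38.1%) at day 20. At least 2-fold changes on the log2 scale were called in 2840 genes (19.0%), 1894 higher (12.6%) and 946 lower (6.31%). All 4 day-20 values lay on 1 side of all 5 day-10 values in 10346 genes (69.1%). The median change of all genes tested was -0.02 with values as deposited, -0.17 after rescaling every library to an equal sum and -0.12 after quantile normalization. Of genes called, 49.4% were higher with values as deposited, 37.13% after rescaling and 40.77% after quantile normalization. At 2-fold, 1617 genes were higher and 1401 lower after rescaling, and 1699 and 1459 after quantile normalization. The 10 genes of highest mean level at day 20 included Clu and Apoe, which encode secreted lipid-carrying proteins made by astrocytes and by other cells. They also included Tff1, a mucus peptide, and Sprr2a2, an envelope protein.

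**Figure D1:**
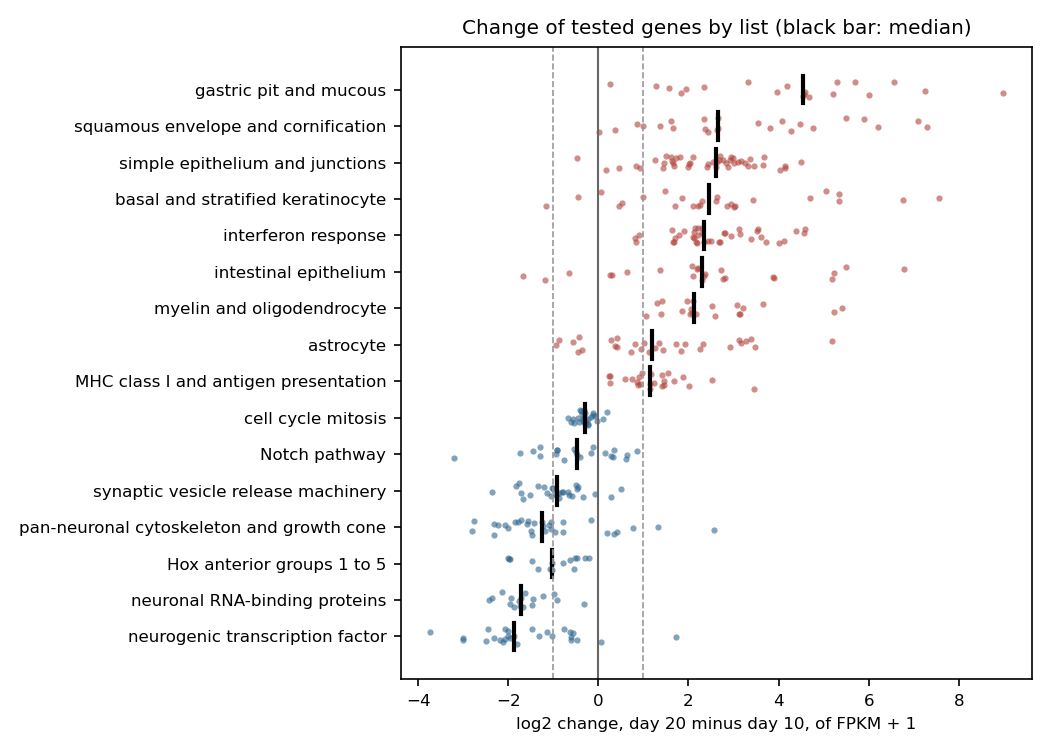
Log2 change of each tested member (points) of 16 gene lists between day 10 and day 20, with each list's median as a black bar, the median of all 14982 genes tested as a solid line and 2-fold changes as dashed lines. Gastric pit genes have the highest median, 4.55, and neurogenic transcription factors the lowest, -1.88.

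Astrocyte genes were higher at day 20, though not all of them. Of 30 astrocyte genes, all of them tested, 24 rose and 6 fell, and 17 rose by 2-fold or more, with a median log2 change of 1.19, where 37.2% of all genes tested rose and 38.1% fell. In bulk samples fewer cells of a type and less RNA per cell cannot be told apart, here or in any list that follows. Aqp4, the water channel of astrocyte endfeet, stood at 2.37, 2.56, 2.87, 2.71 and 2.62 FPKM at day 10 and at 119.6, 137, 142 and 129 at day 20. Every day-20 library was far above every day-10 library, and the log2 change was 5.19 ± 0.05 (limma adjusted p = 6.13e-26). Gfap, the intermediate filament of astrocytes, was already at 173, 173, 179.8, 201 and 196 FPKM at day 10 and reached 1495, 1385, 1432 and 1342 at day 20. Its groups did not overlap and its change was 2.93 ± 0.14 (limma adjusted p = 5.54e-14). Clu, an extracellular chaperone, rose from 526 ± 31.6 to 5483 ± 213 FPKM (3.38 ± 0.25), and Apoe from 463 ± 47.6 to 4502 ± 441 FPKM (3.28 ± 0.07). The whole list summed to 3081 to 3388 FPKM at day 10 and 13945 to 15709 at day 20, so its sum leans on a few abundant genes. The calcium-binding protein gene S100b rose from 5.01 ± 0.41 to 65.5 ± 4.97 FPKM (3.47 ± 0.05), and the gap junction gene Gja1 from 44.6 ± 1.93 to 217 ± 12.1 FPKM (2.26 ± 0.05). Slc1a2 and Slc1a3 encode the pair of astrocyte glutamate transporters, and they moved in opposite directions. Slc1a2 rose from 15.2 ± 0.808 to 56.5 ± 2.01 FPKM (1.83 ± 0.09), whereas Slc1a3, which progenitors also express, fell from 152 ± 8.0 to 79.1 ± 5.54 FPKM (-0.93 ± 0.09). Among the other members that fell were Fgfr3, a growth factor receptor of glial progenitors, at -0.87 ± 0.19, Ttyh1, a chloride channel gene, at -0.57 ± 0.16, and Aldh1l1, a folate enzyme used as a pan-astrocyte marker, at -0.46 ± 0.09.

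Reactive astrocyte genes, which astrocytes induce after injury, rose in 15 and fell in 2 of 19 cases (median 1.06), or 14 and 4 after rescaling. Of these Serpina3n, a protease inhibitor, rose from 38.3 ± 3.39 to 112 ± 7.67 FPKM (1.53 ± 0.07), while Vim, an intermediate filament of immature glia, fell from 443 ± 23.3 to 294 ± 23.3 FPKM (-0.59 ± 0.05). Several of the members that rose, such as Psmb8 and H2-T23, are also induced by interferon.

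Every myelin gene listed rose. All 22 members rose by 2-fold or more, with a median of 2.13, and without day-20 replicate 4 they again numbered 22 (median 2.24). Mbp, a major protein of compact myelin, stood at 173, 171, 187, 199 and 194 FPKM at day 10 and 1905, 1704, 1757 and 1213 at day 20. The fourth day-20 library was the lowest of its day and still above every day-10 library, and the change was 3.13 ± 0.13 (limma adjusted p = 2.41e-15). Mobp, another myelin protein gene, was likewise lowest in replicate 4, with 161, 149, 147 and 86 FPKM at day 20, from 2.54 ± 0.141 at day 10. Mal, a lipid-raft protein of myelin and of epithelia, rose from 1.77 ± 0.331 to 116 ± 5.75 FPKM (5.41 ± 0.08). Mog and Mag, which sit on the myelin surface, rose from 1.88 ± 0.138 to 25 ± 5.97 FPKM and from 18.9 ± 1.75 to 172 ± 42.6 FPKM. Gjb1, a connexin of myelin, rose from 2.07 ± 0.328 to 37.3 ± 2.99 FPKM (3.64 ± 0.09).

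Genes of oligodendrocyte precursors, the cells that make oligodendrocytes, moved less. Of 17 members tested 12 rose and 4 fell, with a median of 0.69. The transcription factor gene Olig2 was at 37.9, 34.9, 35.7, 43 and 40.2 FPKM at day 10 and 45.1, 38.7, 45.3 and 34.5 at day 20. Its libraries overlapped and the change of 0.09 ± 0.07 was not called (95% interval -0.07 to 0.24), but without day-20 replicate 4 a change of 0.16 was (limma adjusted p = 0.0393). Pdgfra, the growth factor receptor of precursors, fell from 52.5 ± 1.51 to 35.3 ± 3.62 FPKM (-0.56 ± 0.20). Sox10, needed throughout the lineage, rose from 29.9 ± 2.96 to 45.5 ± 8.96 FPKM (0.58 ± 0.10) although its lowest day-20 library, replicate 4 at 33.8, lay below the highest of day 10 at 35.0 FPKM.

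**Figure D2:**
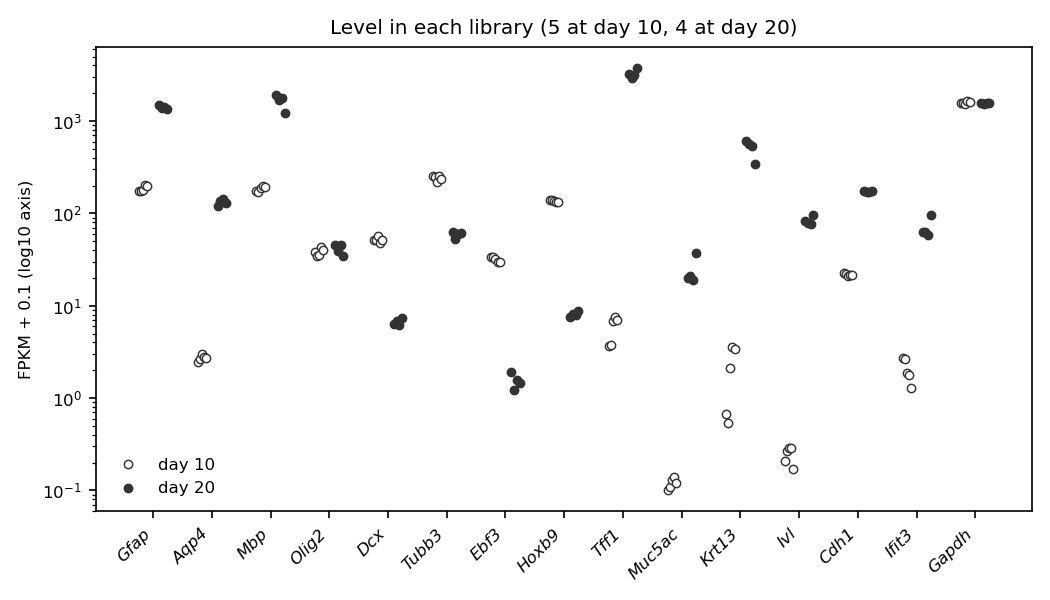
FPKM on a log10 axis, after adding 0.1, of 15 genes in each of the 5 day-10 (open circles) and 4 day-20 libraries (filled circles). Astrocyte, myelin, epithelial and interferon genes lie higher at day 20, neuronal genes and Hoxb9 lie lower, and Olig2 and Gapdh overlap.

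Neuronal genes fell. Of 31 genes of the neuronal cytoskeleton and growth cone 25 fell and 6 rose, 21 and 2 of them by 2-fold or more (median -1.25). Dcx, a microtubule protein of young migrating neurons, was at 51.4, 51.6, 57, 47.5 and 50.9 FPKM at day 10 and at 6.17, 6.7, 6.05 and 7.24 at day 20. The 2 sets of libraries were far apart, with a change of -2.81 ± 0.07 (limma adjusted p = 2.01e-19). Tubb3, the neuronal tubulin, fell from 242 ± 13.1 to 59.3 ± 4.13 FPKM (-2.01 ± 0.05), and Ina, a neurofilament subunit of early neurons, from 139.9 ± 4.8 to 19.7 ± 0.745 FPKM (-2.77 ± 0.11). Tuba1a, the most abundant member, fell from 2027 ± 50.0 to 984 ± 52.4 FPKM (-1.04 ± 0.08), and Tubb2b from 654 ± 25.5 to 198 ± 18.3 FPKM (-1.72 ± 0.05). The members that rose included Thy1, a surface glycoprotein of mature neurons and also of fibroblasts, from 5.61 ± 0.63 to 38.1 ± 3.65 FPKM (2.56 ± 0.15), Nefh, the heavy neurofilament subunit of large axons, from 4.72 ± 0.261 to 13.2 ± 1.33 FPKM (1.31 ± 0.10), and Prph, a filament of peripheral neurons, from 4.48 ± 0.369 to 8.31 ± 0.982 FPKM (0.76 ± 0.07).

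RNA-binding proteins that direct splicing in neurons fell without exception in the list, 17 of 17, 14 of them by 2-fold or more (median -1.72). Celf3 and Celf5 fell from 48.6 ± 4.07 to 8.37 ± 2.08 FPKM and from 29.1 ± 2.02 to 4.92 ± 0.542 FPKM, and Elavl4 from 44.2 ± 1.55 to 9.24 ± 0.365 FPKM. Rbfox3, known as the mature neuron antigen NeuN, fell from 29.9 ± 2.14 to 8.13 ± 0.682 FPKM (-1.76 ± 0.09), and Elavl3 from 50.4 ± 1.68 to 17.5 ± 1.46 FPKM (-1.48 ± 0.06). Genes of the synaptic vesicle release machinery fell in 25 and rose in 1 of 28 cases (median -0.91). Snap25, a membrane fusion protein, was at 75.9, 75.5, 75.4, 73.8 and 73.8 FPKM and then at 34.2, 39.1, 35.7 and 37.5 (-1.01 ± 0.09). Syt4 fell the most, from 33.7 ± 2.06 to 5.74 ± 0.714 FPKM (-2.37 ± 0.09), Rab3a fell from 106 ± 3.53 to 41.2 ± 1.77 FPKM, and the 1 member that rose was Cplx2, a complexin, from 18.2 ± 0.491 to 26.1 ± 0.575 FPKM (0.50 ± 0.05). Of 37 channel and receptor genes 25 fell and 7 rose (median -0.62). Those that rose were led by Gria1, an AMPA receptor subunit, from 5.88 ± 0.229 to 35.1 ± 2.58 FPKM (2.39 ± 0.08), and by Kcnj10, a potassium channel of glia rather than neurons, from 17.5 ± 0.461 to 78.9 ± 2.07 FPKM (2.11 ± 0.05). Of 26 genes of transmitter synthesis and transport 20 were tested, 15 fell and 2 rose (median -0.96). Without the need for 1 FPKM in at least 3 libraries to be tested, 15 fell and 5 rose (median -0.40). Gad1, which makes GABA, fell from 36.8 ± 1.34 to 6.58 ± 0.552 FPKM (-2.32 ± 0.14), and Slc6a5, the glycine transporter of inhibitory spinal neurons, from 17.3 ± 0.301 to 3.88 ± 0.308 FPKM (-1.91 ± 0.05). Ddc, an enzyme of amine transmitters that gut endocrine cells share, rose from 3.44 ± 0.445 to 20.0 ± 1.29 FPKM (2.25 ± 0.07).

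Transcription factors that drive neurogenesis fell. Of 31 listed 27 were tested, 25 fell and 1 rose, 19 of those that fell by 2-fold or more. The median was -1.88 against -1.25 for the cytoskeletal genes, a difference between lists that was not tested. With 5 FPKM added in place of 1 the order was reversed, at -0.74 and -1.21. Members such as Neurod6 reached the level needed for testing, 1 FPKM in at least 3 libraries, through day 10 alone and could only fall. With no such filter 26 fell and 2 rose (median -1.47). Ebf3, a helix-loop-helix factor of differentiating neurons, was at 33.2, 33.3, 31.9, 29.6 and 29.7 FPKM at day 10 and 1.81, 1.11, 1.46 and 1.35 at day 20. No day-20 library came near the day-10 range, and the change was -3.75 ± 0.10 (limma adjusted p = 1.04e-18). Neurod6 fell from 8.79 ± 0.616 to 0.22 ± 0.0356 FPKM, Scrt2, a repressor in new neurons, from 10.2 ± 0.531 to 0.398 ± 0.119 FPKM, and Sox11 from 27.7 ± 0.808 to 5.31 ± 0.202 FPKM. Onecut2, which is also a factor of liver and gut, was the 1 member that rose, from 0.814 ± 0.078 to 4.99 ± 0.445 FPKM (1.72 ± 0.05).

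Factors that set the identity of spinal neurons fell in 21 and rose in 1 of 27 cases (median -1.31). Pax2, Lhx1 and Lbx1 mark inhibitory and dorsal interneurons. Pax2 fell from 13.5 ± 0.966 to 0.42 ± 0.0796 FPKM (-3.35 ± 0.07), Lhx1 from 14.3 ± 0.717 to 0.81 ± 0.051 FPKM (-3.08 ± 0.06) and Lbx1 from 10.1 ± 1.25 to 0.193 ± 0.0492 FPKM (-3.21 ± 0.08). Prdm8, a repressor in interneurons, fell from 26.1 ± 1.92 to 1.24 ± 0.161 FPKM (-3.60 ± 0.07). The exception was Mnx1, a factor of motor neurons and also of the pancreas and gut, which rose from 1.62 ± 0.107 to 11.4 ± 1.22 FPKM (2.24 ± 0.07). Of 32 axon guidance genes 21 fell and 9 rose, with Slit1, a midline repellent, falling from 25.3 ± 1.47 to 4.08 ± 0.22 FPKM (-2.37 ± 0.10) and the netrin receptor gene Unc5b rising from 3.6 ± 0.244 to 14.2 ± 1.1 FPKM (1.72 ± 0.06). Clustered protocadherins, which give neurons their surface identity and whose copies may share reads, fell in 47 and rose in 2 of 52 cases (median -0.61).

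Genes of radial glia and neural progenitors fell in 16 and rose in 5 of 23 cases, with a median of -0.49. The Notch target Hes5, which holds progenitors undifferentiated, was at 44.9, 41.1, 35, 46.5 and 37.6 FPKM and then at 3.96, 2.73, 3.79 and 3.78. All day-20 libraries were below all day-10 libraries (-3.20 ± 0.09, limma adjusted p = 5.28e-18). Pax6, a factor of progenitors in brain and spinal cord, fell from 24.3 ± 1.21 to 7.23 ± 0.456 FPKM (-1.62 ± 0.09), and Neurog2, which commits them to neurons, from 3.46 ± 0.349 to 0.05 ± 0.04 FPKM (-2.08 ± 0.06). Hes1, another Notch target, rose from 33.3 ± 4.14 to 51.2 ± 3.07 FPKM (0.61 ± 0.12). In the Notch pathway list 14 of 22 members fell and 6 rose (median -0.48), or 15 and 3 after rescaling. The ligand gene Dll1 fell from 18 ± 0.55 to 5.94 ± 0.394 FPKM and the feedback gene Nrarp from 16.4 ± 0.915 to 4.27 ± 0.75 FPKM, whereas the receptor gene Notch2 rose from 8.96 ± 0.537 to 14.4 ± 0.573 FPKM and its antagonist Numb from 13 ± 0.846 to 24.3 ± 1.61 FPKM. Crabp1, which encodes a carrier of retinoic acid in the cytoplasm, fell from 96 ± 3.93 to 11.8 ± 1.6 FPKM (-2.93 ± 0.14).

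**Figure D3:**
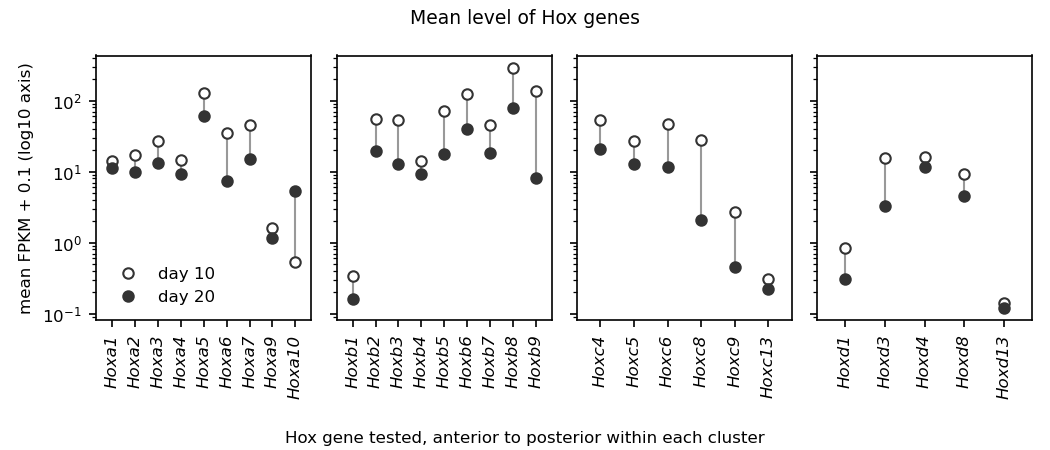
Mean FPKM at day 10 (open) and day 20 (filled) of the Hox genes tested, by cluster and paralogue group from anterior to posterior, on a log10 axis after adding 0.1, with lines joining the 2 days. Nearly all move down, with Hoxb9 from 136 ± 3.96 to 7.99 ± 0.483 FPKM, and Hoxa10 moves up.

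Hox genes fell at both ends of the body axis. Of anterior genes, paralogue groups 1 to 5, 14 of 15 fell and 0 rose (median -1.02). Of posterior genes, groups 6 to 13, 10 of 14 tested fell and 1 rose (median -1.49). The other 10 of the list were too low to be tested. Hoxb9 was at 140.3, 139.9, 137, 132 and 132 FPKM at day 10 and 7.47, 8.08, 7.8 and 8.61 at day 20, groups that did not overlap, and its change was -3.93 ± 0.09 (limma adjusted p = 7.37e-20). Hoxc8 fell from 28.1 ± 1.0 to 1.95 ± 0.447 FPKM (-3.31 ± 0.08). Hoxb8, the most abundant posterior gene, fell from 292 ± 32 to 78.1 ± 8.08 FPKM (-1.89 ± 0.09), and Hoxa5, the most abundant anterior one, from 128 ± 7.31 to 60.7 ± 5.8 FPKM (-1.07 ± 0.09). Hoxa10 was the only tested Hox gene of these lists that rose, from 0.47, 0.43, 0.41, 0.34 and 0.5 to 5.09, 5.07, 4.77 and 5.62 FPKM (2.10 ± 0.08, limma adjusted p = 2.84e-16), while its neighbour Hoxa9 was at 1.52 ± 0.309 and 1.06 ± 0.105 FPKM and was not called (limma adjusted p = 0.0684, or 0.0497 without day-10 replicate 3).

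Enzymes and receptors of retinoic acid did not move as one. Cyp26b1, which breaks retinoic acid down, rose from 97.4 ± 5.46 to 293 ± 23.9 FPKM (1.58 ± 0.06), and Cyp26a1, which does the same, fell from 327 ± 16.9 to 201 ± 16 FPKM (-0.70 ± 0.19). Aldh1a1, which makes retinoic acid, rose from 2.12 ± 0.0999 to 27.9 ± 0.873 FPKM (3.21 ± 0.05). The carrier gene Crabp2 fell from 5.82 ± 0.353 to 2.19 ± 0.567 FPKM (-1.11 ± 0.09), and Rarb, a receptor gene that is itself a target of retinoic acid, fell from 34.2 ± 1.33 to 19.4 ± 3.48 FPKM (-0.80 ± 0.12).

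Genes of gastric epithelium had the highest median change of the lists described. Of 23 genes of gastric pit and mucous cells 20 were tested, 20 rose and 19 of them by 2-fold or more, with a median of 4.55. Members such as Muc5ac reached the level needed for testing, 1 FPKM in at least 3 libraries, through day 20 alone and could only rise. With no such filter 23 rose and 0 fell (median 4.18). Tff1, the trefoil peptide of surface mucous cells, was at 3.54, 3.69, 6.7, 7.4 and 6.96 FPKM in the day-10 libraries and at 3267, 2944, 3135 and 3747 at day 20. Day-10 replicates 1 and 2 were the lowest, and every day-20 library was far above all of them, a change of 8.99 ± 0.29 (limma adjusted p = 3.22e-17). Against day-10 replicates 1 and 2 alone the change was 9.47, and against replicates 3 to 5 alone 8.67, a comparison chosen after seeing the data. Tff2, the trefoil peptide of neck cells, rose from 0.08 ± 0.0778 to 41.3 ± 1.7 FPKM (5.29 ± 0.05), and Tff3, that of the intestine, from 1.97 ± 0.383 to 281 ± 28 FPKM (6.57 ± 0.17). Gkn1 and Gkn2, gastrokines of surface cells, were present earlier. Gkn1 was at 185, 197, 174, 163 and 171 FPKM at day 10 and 836, 951, 827 and 1007 at day 20 (2.34 ± 0.10), and Gkn2 rose from 424 ± 23.3 to 1514 ± 125 FPKM (1.83 ± 0.12). The secreted mucin gene Muc5ac was at 0, 0.01, 0.03, 0.04 and 0.02 FPKM at day 10 and 20.0, 20.7, 19.11 and 37.4 at day 20, highest in replicate 4 (4.58 ± 0.12). Psca, a surface antigen of stomach and bladder, rose from 3.72 ± 0.675 to 714 ± 50.1 FPKM (7.25 ± 0.11), Cldn18, a tight junction protein of stomach and lung, from 3.54 ± 0.22 to 166 ± 8.9 FPKM (5.20 ± 0.09), and Ctse, an aspartic protease of surface cells, from 0.156 ± 0.0723 to 73.8 ± 2.54 FPKM (6.02 ± 0.05). Anxa10, an annexin found in stomach, rose from 0.18 ± 0.129 to 60.1 ± 4.54 FPKM (5.70 ± 0.08).

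Genes of gastric glands and endocrine cells were mixed, with 7 that rose and 4 that fell of 12 tested (median 0.67). Pgc, a pepsinogen of chief cells, rose from 10.9 ± 0.561 to 209 ± 6.73 FPKM (4.15 ± 0.10), whereas Pga5, another pepsinogen, fell from 90.2 ± 5.06 to 51.1 ± 5.01 FPKM (-0.81 ± 0.16). The acid pump gene of parietal cells, Atp4a, fell from 1.35 ± 0.258 to 0.465 ± 0.262 FPKM (-0.69 ± 0.13). The hormone gene Ghrl, for ghrelin, was at 1.15, 1.13, 0.71, 0.53 and 1.2 FPKM at day 10 and 33.1, 30.7, 31.6 and 10.5 at day 20, and Gcg, for glucagon, reached 36.2, 41.2, 45.6 and 11.9 FPKM. Both were lowest at day 20 in replicate 4, which was still above day 10, and their changes were 3.71 ± 0.23 and 4.52 ± 0.23.

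Intestinal genes also rose, 20 of 23 tested against 3 that fell (median 2.29). Lypd8, an antibacterial protein of the colon surface, was at 1.53, 1.06, 1.96, 2.2 and 2.69 FPKM at day 10 and 286, 292, 296 and 373 at day 20, with no overlap (6.78 ± 0.13, limma adjusted p = 6.2e-21). Lgals4, a gut lectin, rose from 9.14 ± 0.648 to 368 ± 18.6 FPKM (5.19 ± 0.13), Krt20, a keratin of differentiated gut and bladder cells, from 2.06 ± 0.144 to 113 ± 3.03 FPKM (5.23 ± 0.06), and Phgr1 from 0.568 ± 0.202 to 69.8 ± 3.89 FPKM (5.50 ± 0.10). Cdh17, the cadherin of the intestine, rose from 0.632 ± 0.147 to 9.82 ± 0.806 FPKM (2.73 ± 0.06). The stem cell receptor gene Lgr5 fell from 5.41 ± 0.296 to 1.02 ± 0.346 FPKM (-1.68 ± 0.08), and so did Defa24, a Paneth cell defensin with near-identical copies, from 4.67 ± 0.603 to 1.61 ± 0.895 FPKM, and the peptidase gene Dpp4, from 4.36 ± 0.275 to 2.44 ± 0.408 FPKM.

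Transcription factors of endoderm and gut rose in 16 and fell in 4 of 23 cases (median 1.20). Hnf4a, a nuclear receptor of gut and liver, rose from 8.2 ± 0.952 to 56.5 ± 3.27 FPKM (2.65 ± 0.10), Klf5, of gut crypts, from 15.5 ± 0.706 to 89.1 ± 9.43 FPKM (2.44 ± 0.10), and Foxa1, a pioneer factor of endoderm, from 2.89 ± 0.304 to 17.9 ± 1.45 FPKM (2.28 ± 0.11). The liver and lymphatic factor gene Prox1 fell from 9.76 ± 0.563 to 3.12 ± 0.342 FPKM (-1.39 ± 0.06). Of secreted proteins of liver and yolk sac 11 rose and 4 fell of 22 tested. Apoa1, the main protein of high-density lipoprotein, rose from 27.3 ± 1.85 to 229 ± 28.9 FPKM (3.02 ± 0.07), Apob from 0.906 ± 0.107 to 25.7 ± 3.5 FPKM (3.80 ± 0.07) and Apoc2 from 1.75 ± 0.532 to 64.5 ± 2.36 FPKM (4.60 ± 0.12), while F2, for prothrombin, fell from 38.5 ± 2.63 to 8.43 ± 0.175 FPKM (-2.07 ± 0.07). Alb, for albumin, stayed at 0.610 FPKM or less in each of the 9 libraries and was not tested.

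Squamous genes rose too. Of 29 genes of basal and stratified keratinocytes 26 were tested, 23 rose and 2 fell (median 2.45), and without day-20 replicate 4 23 rose and 2 fell. Members such as Krt14 and Trp63 passed the filter through day 20 alone, so they could only rise. With no filter 25 rose and 2 fell (median 2.25). Krt13, a keratin of oesophagus and other wet squamous linings, was at 0.57, 0.44, 2.04, 3.5 and 3.33 FPKM at day 10 and 609.6, 564, 539 and 340.0 at day 20. Day-10 replicates 1 and 2 were below replicates 3 to 5, day-20 replicate 4 was below the other 3, and the days did not overlap (7.56 ± 0.26, limma adjusted p = 7.68e-17). The change was 8.38 against day-10 replicates 1 and 2 alone and 7.01 against replicates 3 to 5. Krt5, of basal cells, followed the same order at 0.18, 0.17, 0.8, 1.29 and 1.24 and then 204, 189.6, 188 and 142 FPKM (6.76 ± 0.16). Its partner Krt14 rose from 0.268 ± 0.0887 to 32.1 ± 5.03 FPKM (4.70 ± 0.08), Krt15 from 11.4 ± 6.05 to 373 ± 82.2 FPKM (5.05 ± 0.26) and Krt4, the partner of Krt13, from 6.24 ± 2.46 to 286 ± 66.3 FPKM (5.35 ± 0.19). Trp63, the master factor of stratified epithelium, was at 0.12, 0.05, 0.21, 0.37 and 0.32 and then 7.43, 6.36, 7.57 and 4.47 FPKM (2.60 ± 0.10). Col17a1, a collagen of hemidesmosomes, rose from 0.296 ± 0.155 to 8.51 ± 1.85 FPKM (2.86 ± 0.10). The members that fell were Krt1, a keratin of the upper layers of skin, from 1.59 ± 0.135 to 0.88 ± 0.128 FPKM (-0.46 ± 0.06), and Igfbp2, which is also made by neural and gut cells, from 153 ± 15.4 to 67.2 ± 5.77 FPKM (-1.17 ± 0.11).

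Genes of the cornified envelope that passed the filter nearly all rose. Of 49 listed 48 were in the table and 24 passed the filter, 23 rose and 0 fell (median 2.66), and 7 were listed at 0 in all 9 libraries. Without the filter 33 rose and 1 fell (median 0.86). Members such as Ivl passed the filter through day 20 alone, so they could only rise. Involucrin, Ivl, was at 0.11, 0.17, 0.19, 0.19 and 0.07 FPKM at day 10 and 81.7, 78.1, 77.3 and 95.7 at day 20 (6.19 ± 0.05, limma adjusted p = 1.52e-26). All day-10 libraries were near 0 and all day-20 libraries above 77. Sprr2a2, a small proline-rich protein with near-identical copies, so that its share of their reads is uncertain, rose from 20.1 ± 1.58 to 2874 ± 263 FPKM (7.09 ± 0.28), and Sprr1a from 3.14 ± 0.984 to 242 ± 38.8 FPKM (5.89 ± 0.16). Ly6d, a surface protein of squamous cells, was at 0.19, 0.27, 0.51, 0.62 and 0.59 and then 272, 237, 266 and 139.5 FPKM (7.28 ± 0.14). Anxa1, an annexin of squamous cells, rose from 5.49 ± 0.572 to 298 ± 73.1 FPKM (5.49 ± 0.20). Lor, for loricrin of the skin envelope, was at 12, 10.4, 7.48, 11.1 and 8.48 and then 12.6, 7.83, 9.8 and 10.0 FPKM, overlapped between days and was not called (95% interval -0.58 to 0.63).

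**Figure D4:**
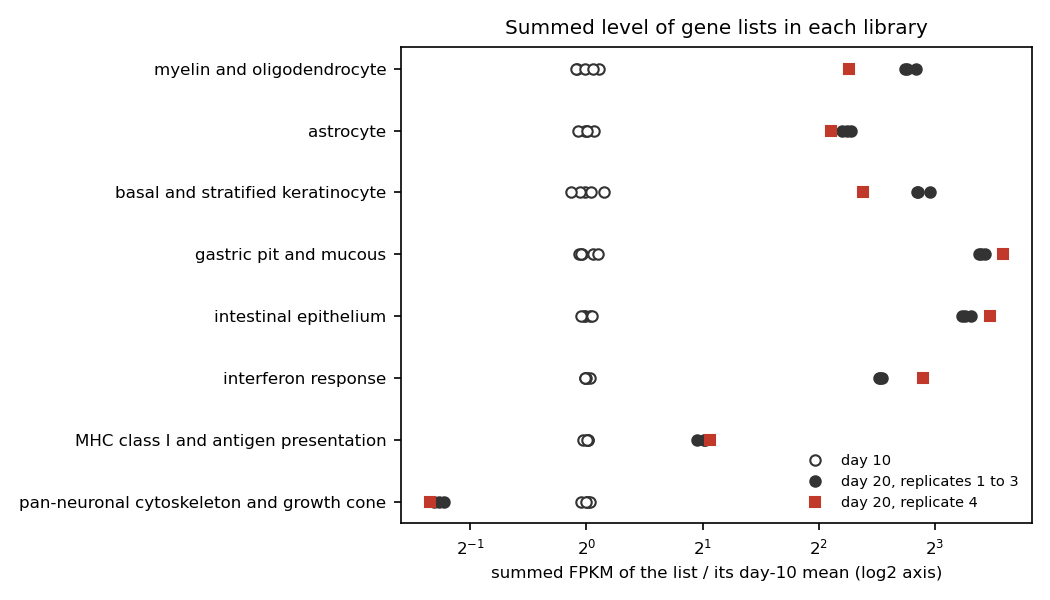
Summed FPKM of 8 gene lists in each library, divided by the list's day-10 mean, on a log2 axis, with open points for day 10 and filled points for day 20 and day-20 replicate 4 as a square. The square lies below the other day-20 points for myelin and basal keratinocyte genes and above them for interferon genes.

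Genes of simple epithelium and its junctions rose almost throughout, 43 of 45 against 1 that fell, 40 of them by 2-fold or more (median 2.62). Pkp1 among them passed the filter through day 20 alone, so it could only rise. E-cadherin, Cdh1, was at 22.4, 22.2, 20.8, 21.6 and 21.6 FPKM at day 10 and 176, 169.7, 172 and 177 at day 20, tightly grouped on both days (2.94 ± 0.05, limma adjusted p = 2.27e-21). Krt8 rose from 80.6 ± 4.38 to 727 ± 33.9 FPKM (3.16 ± 0.06), its partner Krt18 from 61.1 ± 2.46 to 491 ± 16.6 FPKM (2.99 ± 0.07) and Krt19 from 72.9 ± 4.65 to 741 ± 62 FPKM (3.33 ± 0.12). Epcam, an epithelial adhesion protein, rose from 42.2 ± 0.625 to 138 ± 4.36 FPKM (1.68 ± 0.04), less than Cdh1. Cldn4, a tight junction protein, rose from 5.88 ± 0.472 to 122 ± 22 FPKM (4.15 ± 0.09), and Sfn, the checkpoint adaptor stratifin, from 0.898 ± 0.211 to 42.2 ± 9.39 FPKM (4.49 ± 0.15). The transcription factors Elf3 and Ehf, both of epithelia, rose from 22.4 ± 0.878 to 136 ± 7.7 FPKM and from 0.568 ± 0.162 to 16.3 ± 2.18 FPKM. Cldn6, a claudin of early embryonic epithelium, was the member that fell, from 33.4 ± 1.8 to 23.9 ± 1.85 FPKM (-0.47 ± 0.11).

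Epithelial gene families rose with these lists. Of the keratins 17 of 19 tested rose and 1 fell, of 54 in the table. Among S100 proteins, small calcium-binding proteins, 10 of 11 tested rose, and S100a6 went from 19.4 ± 0.971 to 387 ± 36.5 FPKM (4.24 ± 0.10). Annexins rose in 10 of 10 tested cases, of 11 in the table, and mucins in 8 of 8, of 12 in the table. Krt14, Anxa10 and Muc5ac of these families passed the filter through day 20 alone, so they could only rise. Glutathione transferases, which detoxify electrophiles and have near-identical copies, rose in 18 of 20 cases, with Gsto1 going from 54.8 ± 2.42 to 1229 ± 71.1 FPKM (4.46 ± 0.06) and Gsta1 from 3.28 ± 0.684 to 156 ± 14 FPKM (5.21 ± 0.12). Gsta2 among them passed the filter through day 20 alone, so it could only rise. Of 28 tested genes of the motile cilium 26 rose and 0 fell (median 0.95), and the master factor Foxj1 rose from 8.09 ± 0.731 to 36.1 ± 4.11 FPKM (2.03 ± 0.08). Of 21 airway genes only 10 were high enough to be tested, and 9 rose and 1 fell (median 2.08). Sftpd among them passed the filter through day 20 alone, so it could only rise. Of the members that rose Ltf, for lactoferrin, went from 0.858 ± 0.28 to 163 ± 21.1 FPKM (6.47 ± 0.30), Cyp2f2, a club cell enzyme, from 0.88 ± 0.674 to 61.1 ± 16.8 FPKM (5.07 ± 0.20), and Wfdc2 from 7.22 ± 0.871 to 148 ± 23 FPKM (4.17 ± 0.14). Of 12 genes of the bladder lining 11 were tested, 9 rose and 0 fell, with Upk1b going from 1.32 ± 0.184 to 14.3 ± 1.94 FPKM (2.72 ± 0.07). In the list of EGF and FGF pathway genes 13 of 26 tested rose and 6 fell (median 0.17). Those that rose included ligands of the EGF family, with Areg going from 0.912 ± 0.241 to 92.6 ± 13.4 FPKM (5.61 ± 0.11) and Btc from 0.308 ± 0.0363 to 10.6 ± 0.64 FPKM (3.15 ± 0.06), and a receptor of neuregulins, Erbb3, from 0.976 ± 0.136 to 20.9 ± 1.48 FPKM (3.47 ± 0.07).

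Interferon response genes rose as a group. Interferons are signals of infection that act through a complex that holds IRF9 and binds a site that repeats GAAA with a spacer of NN, the interferon-stimulated response element. Of 39 listed genes 39 rose and 0 fell, 36 of them by 2-fold or more, with a median of 2.35, and without day-20 replicate 4 those that rose numbered 39 (median 2.31). Members such as Mx1 and Trim30a passed the filter through day 20 alone, so they could only rise. With no filter 39 rose and 0 fell (median 2.35). The letters GAAANNGAAA were sought on both strands, with overlapping matches allowed, in the 250 bases upstream of the start of each gene in RefSeq's promoter table of build GRCm38.p6. Of the 27 listed genes with an entry 13 held a match (48.15%), against 3.15% of the 11492 tested genes with one, 6.25% of genes higher by 2-fold or more and 3.96% of genes lower by 2-fold or more. A match is a stretch of letters and not a shown binding site. The stretches that follow are shown because they hold such matches, in capitals, in genes whose levels are given next. They are 90 bases each, on the gene's strand, 5′ to 3′.
Ifit3, chr19:34583350-34583439, plus strand: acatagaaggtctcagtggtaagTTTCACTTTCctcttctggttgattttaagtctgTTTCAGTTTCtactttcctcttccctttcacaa
Ifit1, chr19:34640754-34640843, plus strand: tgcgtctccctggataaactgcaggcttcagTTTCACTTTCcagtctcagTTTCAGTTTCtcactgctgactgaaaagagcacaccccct
Isg15, chr4:156200841-156200930, minus strand: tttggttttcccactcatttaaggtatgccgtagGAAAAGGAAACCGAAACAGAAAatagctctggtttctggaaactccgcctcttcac
Rsad2, chr12:26456523-26456612, minus strand: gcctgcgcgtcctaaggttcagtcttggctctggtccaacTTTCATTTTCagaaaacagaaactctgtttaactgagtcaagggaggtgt
All capitals lie within 179 bases of the start. Ifit3 and Ifit1 hold 2 matches each, Rsad2 holds 1, and Isg15 holds 3 that overlap.

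Ifit3, which binds viral RNA with its partners, was at 2.6, 2.56, 1.76, 1.66 and 1.17 FPKM at day 10 and 63.5, 62.8, 58.6 and 96.6 at day 20. Replicate 4 was the highest at day 20, and the change was 4.59 ± 0.13 with it and 4.43 without it (limma adjusted p = 3.6e-18 with all libraries). Isg15, a ubiquitin-like modifier, was at 4.24, 4.23, 3.15, 3.26 and 4.33 and then 72.2, 74.4, 73 and 122 FPKM, again highest in replicate 4 (4.13 ± 0.15). Rsad2, for viperin, rose from 0.692 ± 0.14 to 35.1 ± 9.85 FPKM (4.38 ± 0.11) and Ifit1 from 1.25 ± 0.238 to 26.7 ± 5.83 FPKM (3.61 ± 0.10). Oasl1 and Mx1, both antiviral effectors, rose from 0.716 ± 0.131 to 40.1 ± 8.7 FPKM and from 0.086 ± 0.0461 to 16.6 ± 2.35 FPKM. Irf7, which amplifies interferon production, rose from 2.52 ± 0.328 to 40.0 ± 8.66 FPKM (3.52 ± 0.14). Ifit3 and Ifit1 have near-identical copies that may share their reads. White blood cells are rich in many of these transcripts. Of 26 blood, microglia and macrophage genes 4 were high enough to be tested, and these rose. The list summed to 12.9 to 13.6 FPKM at day 10 and 70.2 to 76.9 at day 20, most of it from Cd68. The members that rose were Cd14, a receptor for bacterial products that epithelia also express, from 1.56 ± 0.137 to 17.2 ± 1.23 FPKM (2.82 ± 0.07), Cd68, a lysosomal protein, from 9.05 ± 0.52 to 50.0 ± 3.0 FPKM (2.34 ± 0.10), Laptm5, from 0.378 ± 0.139 to 3.63 ± 1.64 FPKM (1.69 ± 0.20), and Csf1r, a growth factor receptor of macrophages, from 0.758 ± 0.0858 to 1.41 ± 0.417 FPKM (0.44 ± 0.09), which was not called after quantile normalization (limma adjusted p = 0.218). Ctss, a lysosomal protease of macrophages and of other cells, rose from 0.072 ± 0.0545 to 5.31 ± 0.979 FPKM (2.55 ± 0.07). Ptprc, the pan-leukocyte surface protein, and Spi1, a myeloid factor, were at 0.06 FPKM or less in each of the 9 libraries. The part of such cells in the interferon and antigen presentation results was not tested.

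Antigen presentation genes moved with them. Of MHC class I and antigen presentation genes 24 of 33 were tested, 22 rose and 0 fell (median 1.16). B2m, the light chain shared by class I molecules, was at 213, 221, 243, 218 and 232 FPKM and then 458, 537, 484 and 554 (1.17 ± 0.09, limma adjusted p = 1.12e-10). H2-K1 and H2-D1, the classical heavy chains, rose from 122 ± 7.4 to 359.9 ± 16.2 FPKM and from 137 ± 8.15 to 365 ± 20.7 FPKM. H2-T23, a nonclassical chain, rose more, from 7.52 ± 0.539 to 91.8 ± 3.83 FPKM (3.45 ± 0.11), and Psmb8, of the immunoproteasome, from 4.73 ± 0.195 to 22.1 ± 3.07 FPKM (2.00 ± 0.15). MHC genes have near-identical copies, so reads may be split between them. Complement and acute phase genes rose in 16 of 16 tested cases (median 1.69), with C3, the central complement protein, going from 1.42 ± 0.216 to 73.5 ± 4.61 FPKM (4.95 ± 0.10).

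Mesenchymal and vascular genes gave smaller and mixed changes. Of 21 tested smooth muscle genes 17 rose and 2 fell (median 0.92). Acta2, smooth muscle actin, was at 8.02, 7.73, 8.25, 8.64 and 8.2 and then 29.2, 27.5, 26.2 and 42.6 FPKM, highest in day-20 replicate 4 (1.79 ± 0.46), and Tagln rose from 11.3 ± 1.02 to 43 ± 4.1 FPKM (1.84 ± 0.11). Fibroblast and matrix genes rose in 29 and fell in 6 of 40 cases (median 0.54). Their summed level did not rise, at 1814 to 2019 FPKM at day 10 and 1583 to 1828 at day 20. Pdgfra, used as a marker of fibroblasts too, fell from 52.5 ± 1.51 to 35.3 ± 3.62 FPKM. Of 34 collagens tested 17 rose and 9 fell, and the family summed to 1319 to 1564 FPKM at day 10 and 1009 to 1232 at day 20. Col1a1 and Col3a1, fibrillar collagens, rose from 13.8 ± 1.52 to 33.1 ± 4.48 FPKM and from 24.3 ± 3.19 to 70.8 ± 9.65 FPKM, and Bgn, a matrix proteoglycan, from 3.29 ± 0.604 to 28.4 ± 3.25 FPKM (2.78 ± 0.19). In the basement membrane list 7 rose and 9 fell of 21, near the 37.2% and 38.1% of all genes tested that did. The counts were 8 and 7 without day-10 replicate 1 and 7 and 6 without day-20 replicate 4. Its chains differed by type. Col4a1 and Lama1, of embryonic basement membranes, fell from 702 ± 55.3 to 428 ± 42 FPKM (-0.72 ± 0.25) and from 213 ± 15.2 to 109.9 ± 2.94 FPKM (-0.95 ± 0.21), while Lama3 and Lamb3, chains of the laminin of stratified epithelium, rose from 0.79 ± 0.0548 to 7.85 ± 0.372 FPKM and from 2.46 ± 0.184 to 26.9 ± 1.33 FPKM.

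Markers of endothelium and of striated muscle were mostly low or moved apart. Pecam1, an endothelial adhesion protein, was at 0.344 ± 0.0623 and then 0.15 ± 0.0548 FPKM (-0.22 ± 0.07) and Kdr, an endothelial receptor, fell from 2.03 ± 0.211 to 0.69 ± 0.107 FPKM (-0.84 ± 0.07), whereas Cdh5, the endothelial cadherin, rose from 9.95 ± 0.237 to 26.2 ± 1.64 FPKM (1.31 ± 0.07). The endothelium list summed to 131 to 157 FPKM at day 10 and 162 to 189.7 at day 20. Of its 14 tested members 5 were higher and 3 lower, beside 37.2% and 38.1% of all genes tested, or 5 and 5 after rescaling. Of 30 genes of striated muscle 14 were tested, 2 rose and 6 fell. Myl7, a light chain of heart myosin, fell from 1.46 ± 0.318 to 0.04 ± 0.08 FPKM (-1.23 ± 0.14). The heart genes Myh6 and Actc1 and the muscle gene Myog stayed at 1 FPKM or less in all 9 libraries. The source of every library is labelled as embryonic stem cells, and the pluripotency factor gene Pou5f1 was at 1.23, 1.37, 1.0, 0.9 and 0.97 FPKM at day 10 and 0.14, 0.23, 0.06 and 0.35 at day 20 (-0.81 ± 0.10). Its list did not move as one. Of 20 pluripotency genes 10 fell, 3 rose and 7 were not called (median -0.21). The list summed to 197 to 218 FPKM at day 10 and 216 to 251 at day 20.

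Cell cycle genes fell slightly. Of 28 mitosis genes 22 fell and 1 rose, 0 of them by 2-fold (median -0.30), and of 30 replication genes 17 fell and 3 rose (median -0.19). Top2a, which untangles chromosomes, was at 28.9, 29.4, 30.9, 28 and 30.3 and then 22, 24.1, 19.9 and 20.6 FPKM, without overlap (-0.43 ± 0.04). Mki67, the usual proliferation marker, was the mitosis gene that rose, from 6.93 ± 0.501 to 8.09 ± 0.271 FPKM (0.20 ± 0.05, limma adjusted p = 0.00163), with values as deposited. Its change was 0.03 after rescaling and 0.11 after quantile normalization. Neither was called. Inhibitors of the cycle moved apart. Cdkn2a and Cdkn2b, which block entry into the cycle, rose from 18.7 ± 2.04 to 86.3 ± 7.43 FPKM and from 8.02 ± 0.718 to 56.4 ± 4.49 FPKM, Cdkn1a from 65.5 ± 2.13 to 160.1 ± 9.41 FPKM, and Cdkn1c, an inhibitor of embryonic tissues, fell from 116 ± 11 to 35.3 ± 3.29 FPKM (-1.69 ± 0.08). Ccnd2, a cyclin that opposes them, rose from 19.9 ± 1.97 to 139.8 ± 9.98 FPKM (2.75 ± 0.12).

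Genes of cholesterol synthesis fell in 16 and rose in 4 of 25 cases (median -0.28). Hmgcs1, an early enzyme of the pathway, was at 224, 230.3, 250.03, 238 and 251 FPKM and then 142, 159.7, 154 and 125 (-0.72 ± 0.06). Lysosomal genes rose in 15 and fell in 1 of 26 cases (median 0.30) with values as deposited, 12 and 8 after rescaling and 11 and 6 after quantile normalization, with the protease gene Ctsh going from 97.9 ± 7.55 to 257 ± 9.58 FPKM (1.38 ± 0.35). Of 23 glycolysis genes 8 rose and 8 fell with values as deposited, near the 37.2% and 38.1% of all genes tested that did. After rescaling 3 of these genes rose and 13 fell, and after quantile normalization 5 rose and 13 fell. Here isoenzymes differed, as Hk2 rose from 15.2 ± 0.802 to 34.1 ± 1.31 FPKM (1.12 ± 0.05) and Pfkp fell from 77.2 ± 4.84 to 23.1 ± 0.795 FPKM (-1.70 ± 0.07). Cytoplasmic ribosomal protein genes, many of which have processed copies that may share reads, rose in 17 and fell in 3 of 29 cases with values as deposited, but rose in 9 and fell in 16 after quantile normalization, and in 14 and 12 after rescaling. Outside the list, Rps27, another such gene, went from 1166 ± 45.2 to 3891 ± 361 FPKM (1.73 ± 0.09) and Rps29, chosen after its values were seen, from 1429.9 ± 64.1 to 568 ± 85.1 FPKM (-1.34 ± 0.14).

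Signalling pathway lists changed in part. BMP and TGF-beta genes rose in 21 and fell in 5 of 29 cases (median 0.56). The ligand gene Bmp4 was at 4.54, 4.96, 5.58, 7.57 and 6.09 and then 20.3, 21.4, 11.3 and 8.72 FPKM, with a wide spread at day 20 (1.21 ± 0.31), and Fst, an inhibitor of activins, fell from 13.1 ± 1.12 to 5.84 ± 0.691 FPKM (-1.04 ± 0.16). In the hedgehog list 4 of 12 tested members rose and 4 fell, near the 37.2% and 38.1% of all genes tested that did. There the ligand gene Shh rose from 1.63 ± 0.0661 to 7.36 ± 0.796 FPKM (1.66 ± 0.06). In the Wnt pathway list 10 of 28 tested members rose, near the 37.2% of all genes tested that did. A further 6 fell, beside 38.1% of all genes tested, and 12 were not called (median 0.05). Of its ligands Wnt7a fell from 20.9 ± 1.11 to 6.53 ± 1.04 FPKM (-1.55 ± 0.09) and Wnt5b rose from 17.4 ± 1.27 to 39.1 ± 4.11 FPKM (1.12 ± 0.08). Immediate early genes rose in 15 and fell in 2 of 21 cases with values as deposited, 12 and 6 after rescaling and 13 and 5 after quantile normalization, with Junb going from 55.7 ± 6.08 to 141 ± 17.8 FPKM (1.33 ± 0.14) and Fos from 138 ± 2.09 to 86 ± 5.61 FPKM (-0.68 ± 0.14).

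Genes were counted as switched on where every day-10 library was under 0.5 FPKM and the day-20 mean was 5 FPKM or more, and as switched off in the reverse case, as a description with no test. By this rule 102 genes were switched on and 9 off. The 10 highest of those switched on were Ivl, Ctse, Anxa10, Ifit1bl1, Tff2, Syt8, Ms4a8a, Krt14, Sprr3 and Gm3336. Of the 102, 8 are in the squamous envelope list, 6 in the gastric pit list, 5 in the keratinocyte list and 3 in the interferon list. In all 13 libraries of days 0, 2 and 4, 87 of them were also under 1 FPKM, and 15 were not. The 9 genes switched off were Gm26602, Lbx1, Neurod6, Otp, Nkx1-1, Neurod2, Dbx1, Nhlh2 and Robo3, most of them transcription factors of neural progenitors or young neurons. Gm26602, an uncharacterised gene model, was at 29.5, 18.6, 21.1, 34.9 and 23.3 FPKM at day 10 and listed at 0 in all 4 day-20 libraries, and so was Dbx1, a factor of spinal progenitors, from 6.06, 5.83, 5.55, 6.19 and 5.69 FPKM. Gm26602, Neurod6 and Neurod2 had stayed under 1 FPKM on days 0, 2 and 4, whereas the other 6 had reached 1 FPKM in at least 1 library then.

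Some of the genes that rose most lay side by side. The order of genes was taken from RefSeq's table of build GRCm38.p6, which differs from the build of the deposited values and so serves for order alone, and 14827 tested genes could be placed. Runs of 3 or more neighbouring tested genes that were all called and at least 4-fold higher numbered 24 and held 86 genes, beside 4.35% of genes higher by that rule overall. There were 0 such runs of genes at least 4-fold lower, which made up 0.614% of genes. The longest run was of 7 keratin genes on chromosome 11, Krt20, Krt23, Krt13, Krt15, Krt19, Krt14 and Krt17, with log2 changes of 3.33 to 7.56. Next came 6 genes on chromosome 3, Sprr2a1, Sprr2a2, Sprr2a3, Sprr3, Sprr1a and Ivl, at 3.55 to 7.09. Runs of 5 were Krt80, Krt7, Krt6b, Krt6a and Krt5 on chromosome 15, S100a14, S100a16, S100a3, S100a4 and S100a6 on chromosome 3, and Ifit2, Ifit3, Ifit1bl1, Ifit3b and Ifit1 on chromosome 19. Tff3, Tff2 and Tff1 on chromosome 17 and Apoc2, Apoc1 and Apoe on chromosome 7 were among the runs of 3. Most runs hold copies of 1 gene family, whose reads may be shared.

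**Figure D5:**
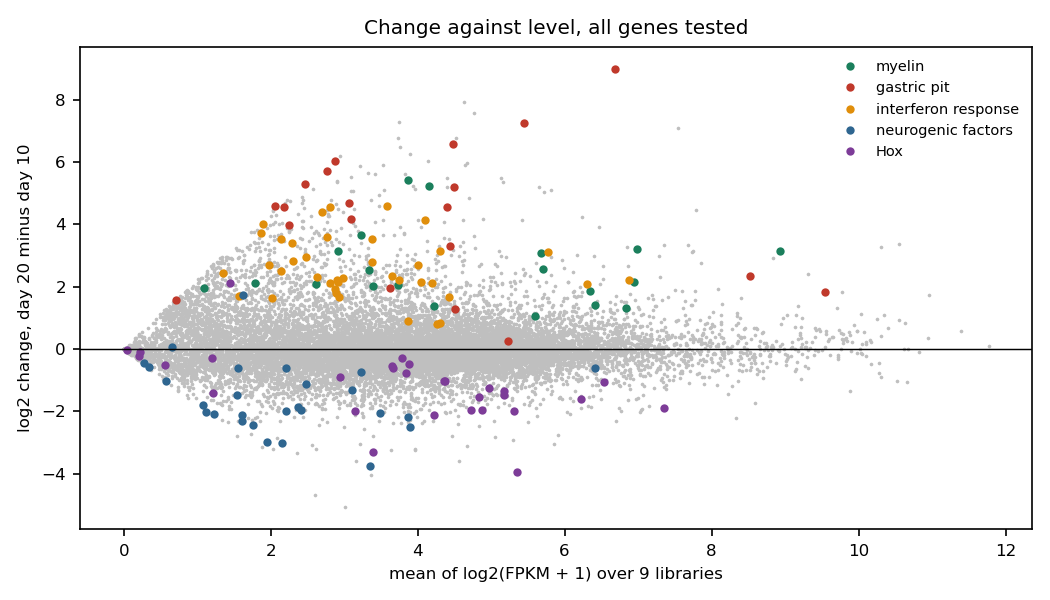
Log2 change between day 10 and day 20 against mean level over the 9 libraries, log2(FPKM + 1), for all 14982 genes tested (grey), with myelin, gastric pit, interferon, neurogenic and Hox genes in colour. The coloured points of the first 3 lists lie above 0 and nearly all of the last 2 below it.

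Beyond the lists, the 3 largest falls were of Gm8797, a ubiquitin-like gene model whose copies may share its reads, from 37.5 ± 3.17 to 0.168 ± 0.335 FPKM (-5.08 ± 0.28), of Gm26602, from 25.5 ± 6.62 to 0 ± 0 FPKM (-4.69 ± 0.11), and of Pnoc, which encodes the peptide nociceptin, from 34.8 ± 1.14 to 1.18 ± 0.294 FPKM (-4.05 ± 0.07). Fgfbp3, a binding protein of fibroblast growth factors, fell from 70.4 ± 2.9 to 4.93 ± 0.356 FPKM (-3.59 ± 0.06), Gpc2, a glypican of young neurons, from 65.7 ± 3.63 to 6.71 ± 0.587 FPKM (-3.11 ± 0.10), Moxd1 from 41.3 ± 2.33 to 3.51 ± 0.722 FPKM (-3.24 ± 0.11) and Snhg11, a noncoding RNA host gene, from 147 ± 7.18 to 17 ± 2.25 FPKM (-3.04 ± 0.11). Large rises outside the lists included those of 2210407C18Rik, a neighbour of Lypd8, which was at 0.94, 1.25, 0.99, 1.26 and 1.32 FPKM at day 10 and 448, 520.2, 509.7 and 619 at day 20 (7.93 ± 0.07), of Clca1, a goblet cell secretion, from 1.17 ± 0.0762 to 165 ± 16.3 FPKM (6.25 ± 0.07), of Cbr2, a carbonyl reductase of airway, from 0.582 ± 0.511 to 91.8 ± 26.7 FPKM (5.87 ± 0.19), and of Arg1, an arginase, from 0.768 ± 0.153 to 87.5 ± 6.45 FPKM (5.65 ± 0.08).

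Some abundant genes held their level within narrow limits with values as deposited. The 95% interval of the log2 change lay within -0.2 to 0.2 in 1037 genes, 6.92% of those tested. The most abundant of these were Eef1a1, a translation elongation factor, Actg1, an actin, and Gapdh, a glycolytic enzyme. Gapdh was at 1563, 1577, 1522, 1667 and 1589 FPKM at day 10 and 1588, 1541, 1576 and 1567 at day 20, with a change of -0.01 ± 0.04 (95% interval -0.11 to 0.08), against -0.21 after rescaling and -0.42 after quantile normalization. Actg1 overlapped in the same way at 1637 ± 14.4 and 1629 ± 34.6 FPKM. Eef1a1 was called with a small rise, from 3403 ± 93.4 to 3611 ± 189 FPKM (0.08 ± 0.04, limma adjusted p = 0.0432), with values as deposited, but fell by 0.11 after rescaling and by 0.86 after quantile normalization on the log2 scale, and its libraries overlapped. Leaving out day-10 replicate 1, 2 or 4 or day-20 replicate 1 or 2 ended its call (limma adjusted p = 0.0656 to 0.202).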

How the data were processed

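RNA with poly(A) tails was sequenced in 22 libraries, of which 5 at day 10 and 4 at day 20 are compared. The values are FPKM per gene as deposited by the authors. The submitters' processing notes name RSEM and mm9, with no version, and the unit was read from the values. Whole reads could not be recovered from them, so depth is unknown and no count test was run. Here log2(FPKM + 1) was fitted with limma 3.58.1 (R 4.3.3) with a trended variance, on group means over all 22 libraries, for the 14982 genes at 1 FPKM or more in at least 3 libraries. P-values were adjusted over all genes tested by the Benjamini-Hochberg method, with a threshold of 0.05. On simulated data for this comparison, 14982 genes in all, 67, 67 and 66 genes were changed by 0.3, 0.585 and 1 on the log2 scale. Of these 49.3%, 82.1% and 100% were called, and 7.78% of all calls were false. Few genes were changed, and each gene was given the same spread on all days. These shares therefore do not carry over to the real comparison, where 75.2% of genes were called.

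Gene lists, members and the naming rule were chosen with earlier results of these data known. Genes named were, by that rule, those of largest change at 10 FPKM or more without overlap, up to 5 members of each list by change and level, members against their list's direction, the 10 of highest level on each day, the most abundant of narrow interval, the genes switched on or off, and a set of usual markers. Cyp26a1, Cyp26b1, Hoxa9, Ifit1, Irf7, Isg15, Lama1, Lor, Mx1, Rarb and Rps29 were chosen after their values were seen, and runs are named in full. Promoter sequences and gene order came from RefSeq (GRCm38.p6). Alternatives covered pseudocount, filter, scaling, weights, libraries left out and a replicate block. Chromatin libraries were not used here. Some genes of the lists are not reported here.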

Additional observations from a re-analysis of the deposited data

Results flagged for a closer look

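Of 474 sets of day-10 or day-20 libraries examined, 1 for each gene named and each day, 34 had 1 library whose gap to the nearest of the others exceeded Dixon's 95% critical value for their range. Chance flags about 1 in 20 such sets.

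Day-20 replicate 4 was the library that stood out in 13 of the 34. It was above the other 3 libraries in interferon genes. Its level was 121.79 FPKM for Isg15 against 72.2 to 74.4, 96.59 for Ifit3, 72.17 for Ifit1bl1, 53.03 for Oasl1 and 19.89 for Ifit2. It was also above them in epithelial genes, at 37.42 FPKM for Muc5ac against 19.11 to 20.7, 373.28 for Lypd8 and 29.19 for Aldh1a1, and in Snhg11 at 20.39. It was below them at 16.11 FPKM for Mog, a myelin gene, against 27.2 to 29.1, at 10.49 for Ghrl, at 36.17 for Cyp2f2 and at 63.53 for Krt7.

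Day-20 replicate 1 stood out at 14.15 FPKM for Crabp1, 40.71 for Pdgfra, 274.22 for Ttyh1, 0.38 for Robo3, 0.11 for Neurog2 and 0.16 for Myl7, which was listed at 0 in the other 3. In day-20 replicate 2 the values were 30.4 FPKM for Cdkn1c, 26.51 for Gm3336, 2.73 for Hes5 and 9.57 for Mnx1. In day-20 replicate 3 they were 60.99 FPKM for Apoc2, 0.11 for Actc1 and 0.67 for Gm8797, which was listed at 0 in the other 3.

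At day 10 replicate 1 stood out at 6.43 FPKM for Crabp2 and 29.06 for Sox11. Replicate 3 did so at 20.83 FPKM for Elf3 and 33.93 for F2. Replicate 4 was at 1.35 FPKM for Ltf, 35.01 for Sox10 and 484.13 for Vim, and replicate 5 at 2.12 FPKM for Mog. None of these values changed the side of the threshold of its gene when the library was left out.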

How the results depend on the processing

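Genes called numbered 10167 to 12481 under every alternative run, against 11270, and 10978 to 11088 with any 1 library left out. At least 2-fold calls depended on the pseudocount, with 1443 in all, 1061 higher and 382 lower at 5 FPKM and 1462 lower at 0.1 FPKM. Lower calls were 1459 after quantile normalization and 558 when the test itself was against 2-fold. Runs of neighbouring genes numbered 15 without the filter on low values, 51 at a pseudocount of 0.1 and 9 at 5. Among lists, blood genes higher were 7 and striated muscle genes lower 10 without the filter, as more genes were tested. Basement membrane genes lower were 5 against day-10 replicates 3 to 5 alone. Glycolysis genes higher were 4 against replicates 1 and 2 alone, 5 after quantile normalization and 3 after rescaling, and ribosomal protein genes higher were 9 after quantile normalization. Eef1a1 changed by -0.11 after rescaling and -0.86 after quantile normalization. The cause of these moves was not tested beyond the change in genes or libraries named. Of 1224 values of 59 counts under the alternatives, which take each list in its larger direction alone, 16 moved by over 1.5 times, and counts in the smaller direction moved further for some lists, as given in the report. Same-numbered libraries of the 2 days share only a number, with deviations correlated at 0.2189, -0.0917, -2e-04 and -0.1457. With the replicate number as a block, on days 10 and 20 alone, 11178 genes were called. Unknown depth limits what can be said of genes near 0.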
